A study of Homo sapiens with 24 samples.

Results

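The 9 genes described here belong to the YAP-TEAD branch of the Hippo pathway: CTGF, CYR61, ANKRD1, AMOTL2, LATS2, AXL, YAP1, WWTR1 and TEAD1. They were taken by gene symbol from the deposited expression tables, and all 9 were found among the 48162 genes listed there. CTGF and CYR61 are the older names of CCN2 and CCN1.

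The Hippo pathway is a kinase cascade in which LATS kinases phosphorylate the coactivators YAP1 and TAZ (the product of WWTR1) and keep them out of the nucleus. Unphosphorylated YAP1 and TAZ enter the nucleus and bind TEAD factors, which carry them to DNA because the coactivators have no DNA-binding domain of their own. Cell spreading, stiffness, low cell density and serum lipids are known to raise the output of the pathway, which is commonly read from transcripts such as CTGF, CYR61 and ANKRD1. LATS2 and AMOTL2 are themselves targets that act back on YAP1 and TAZ.

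Expression was measured by RNA-seq in 24 libraries, 3 for each of 8 groups, to ask what extracellular vesicles (EV) of pancreatic cancer cells do to non-cancerous pancreas cells. The recipient lines were hTERT-HPNE (HPNE), made to divide without limit by adding the telomerase gene, and HPDE-H6c7 (HPDE), from pancreatic duct epithelium. Subconfluent cells of each line, grown in serum-free keratinocyte medium with penicillin-streptomycin, were kept for 24 h under 1 of 4 conditions. The untreated groups received fresh serum-free medium, the residual-medium groups received what was left of the medium after vesicle isolation, and the vesicle groups received 1e10 vesicles in each well, isolated from cultures of PANC-1 or PPCL-68 cells. PANC-1 is an established pancreatic carcinoma line. The submitters describe the residual medium as the negative control, so vesicles are compared first with it, and it is compared with fresh medium. The design text calls the 3 libraries of a group biological replicates. Whether they came from separate cultures on separate days is not given in the sources used here. The results therefore describe 2 immortalised lines, at 1 vesicle dose and 1 time.

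Between 29874928 and 46490312 reads were assigned to genes in the HPNE libraries and between 29209142 and 42206773 in the HPDE libraries. TERT, the telomerase gene used to immortalise HPNE, was at 114 to 443 FPKM (reads scaled to gene length and library total) in HPNE and at 1.10 to 3.00 in HPDE. The 6 epithelial markers summed to 1431 to 3498 FPKM in HPDE and to 4.56 to 12.8 in HPNE. EPCAM and CDH1, 2 of the 6, did not exceed 0.162 FPKM in any HPNE library. The 7 mesenchymal markers summed to 2706 to 9114 FPKM in HPNE and to 39.5 to 59.1 in HPDE. The 4 haematopoietic markers summed to at most 1.19 FPKM in HPNE and 2.13 in HPDE, nearly all from CD14, and the 2 endothelial markers found in the tables, CDH5 and KDR, summed to at most 0.175 in either line. In bulk RNA, fewer cells of a type and less RNA per cell cannot be told apart. In HPNE 1 library of each group lay apart from the other 2: replicate 3 of the untreated and residual-medium groups and replicate 1 of both vesicle groups. Its smaller distance to the other 2 was 1.89 to 3.18 times their distance from each other, against 1.06 to 1.22 times in the HPDE groups. HPNE residual-medium replicate 3 was closest to a library of another group, PANC-1 EV replicate 2, and the other 23 libraries were closest to a library of their own group. HPNE calls are therefore also given without those 4 libraries. That alternative was chosen after seeing the data, and dropping the farthest library of each group makes the spread within groups smaller by construction. Its counts, and those under the other alternatives given below, come with no share over all genes. They are therefore not read as particular to the YAP-TEAD genes.

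TEAD factors bind the letters GGAATG, read as CATTCC on the other strand. Promoter windows (250 bases before to 50 after a gene's start, RefSeq, build GRCh38.p14) were found for 7 of the 9 genes, with 10 windows in all. Those of CYR61 and TEAD1 were not used here. The letters occurred on either strand in 6 windows of 6 genes: CTGF, ANKRD1, AMOTL2, LATS2, AXL and YAP1. Neither WWTR1 window held them, which says only that these letters are not in those windows. Among all 35116 windows of that length in the table, 14.0% held at least 1 copy, 1.37% at least 2 and 0.128% at least 3. CTGF had 3 copies, starting 169, 104 and 95 bases before its start, and ANKRD1 had 2, at 220 and 128 bases before. The 250 bases before the start are shown for CTGF (chr6:131951373-131951622, minus strand), ANKRD1 (chr10:90921088-90921337, minus strand) and the second listed start of AMOTL2 (chr3:134374448-134374697, minus strand). These 3 are shown because their transcripts rose together in HPNE. They are written 5′ to 3′ in the direction of transcription, with the TEAD letters in capitals.
CTGF: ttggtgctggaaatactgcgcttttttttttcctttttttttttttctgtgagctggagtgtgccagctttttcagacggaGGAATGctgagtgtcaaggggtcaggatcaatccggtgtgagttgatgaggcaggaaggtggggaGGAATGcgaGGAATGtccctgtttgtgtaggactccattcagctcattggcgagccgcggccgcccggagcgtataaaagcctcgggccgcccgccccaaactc
ANKRD1: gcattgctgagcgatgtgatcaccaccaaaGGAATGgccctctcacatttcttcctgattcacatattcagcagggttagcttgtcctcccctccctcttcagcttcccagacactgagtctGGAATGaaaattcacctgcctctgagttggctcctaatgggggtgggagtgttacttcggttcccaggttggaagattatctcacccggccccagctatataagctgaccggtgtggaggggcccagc
AMOTL2: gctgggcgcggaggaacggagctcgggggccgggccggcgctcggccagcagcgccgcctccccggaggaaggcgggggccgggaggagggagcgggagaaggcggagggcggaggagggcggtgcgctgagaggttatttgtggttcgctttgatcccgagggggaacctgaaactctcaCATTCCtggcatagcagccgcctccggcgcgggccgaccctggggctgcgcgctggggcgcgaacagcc
A broad form of the motif of the AP-1 factors, TGANTCA with any base at N, reads the same on both strands and shares no letters of its own with any of these TEAD copies. This broad form occurred once among the members' windows, as TGATTCA in ANKRD1 at 195 bases before the start, and in 7.71% of all windows. A match of letters is a description of the sequence and not evidence of binding.

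In untreated cells the 2 lines differed in all 8 genes other than ANKRD1 (limma, Benjamini-Hochberg adjusted p of 0.05 as the threshold throughout, adjusted over all genes tested), where 83.8% of 12377 tested genes differed. Transcripts of the secreted matricellular proteins CTGF and CYR61 went in opposite directions. CTGF, on chr6:132269316-132272513 (hg19, as are all gene positions here), averaged 136 ± 79.5 FPKM in HPNE and 21.3 ± 0.406 in HPDE (SD, n = 3). CYR61, on chr1:86046444-86049645, averaged 93.1 FPKM in HPNE and 268 in HPDE. ANKRD1 (chr10:92671853-92681033), an ankyrin-repeat protein that acts in the nucleus as a transcriptional cofactor, averaged 18.0 FPKM in HPNE and 0.378 in HPDE. In HPDE it had 18 to 37 reads per library over all treatments, so it was above the floor of 3 reads but below the filter for testing (a mean of at least 1 FPKM). It passed the filter of the tests between lines through its HPNE level alone and so had to differ there, and it is left out of the counts of genes that differed between lines in untreated cells and in the effect of residual medium. AMOTL2 (chr3:134074716-134094321), a junction protein of the angiomotin family that binds YAP1, was 2.92-fold higher in HPDE by the ratio of means. LATS2 (chr13:21547171-21635686) was lower in HPDE, with a ratio of 0.389, and so was WWTR1 (chr3:149235022-149454501), with a ratio of 0.581. Differences in AXL (chr19:41725108-41767671), YAP1 (chr11:101981192-102104154) and TEAD1 (chr11:12695969-12966298) were smaller, with ratios of 1.4, 1.2 and 1.42. Division by size factors in place of library totals moved the median difference of all genes between the lines by -0.31 on the log2 scale, from 0.38 to 0.07. Under it 5 of those 8 genes differed, AXL and TEAD1 no longer did, and YAP1 turned to a log2 difference of -0.10 (adjusted p = 0.328, limma).

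**Figure D1:**
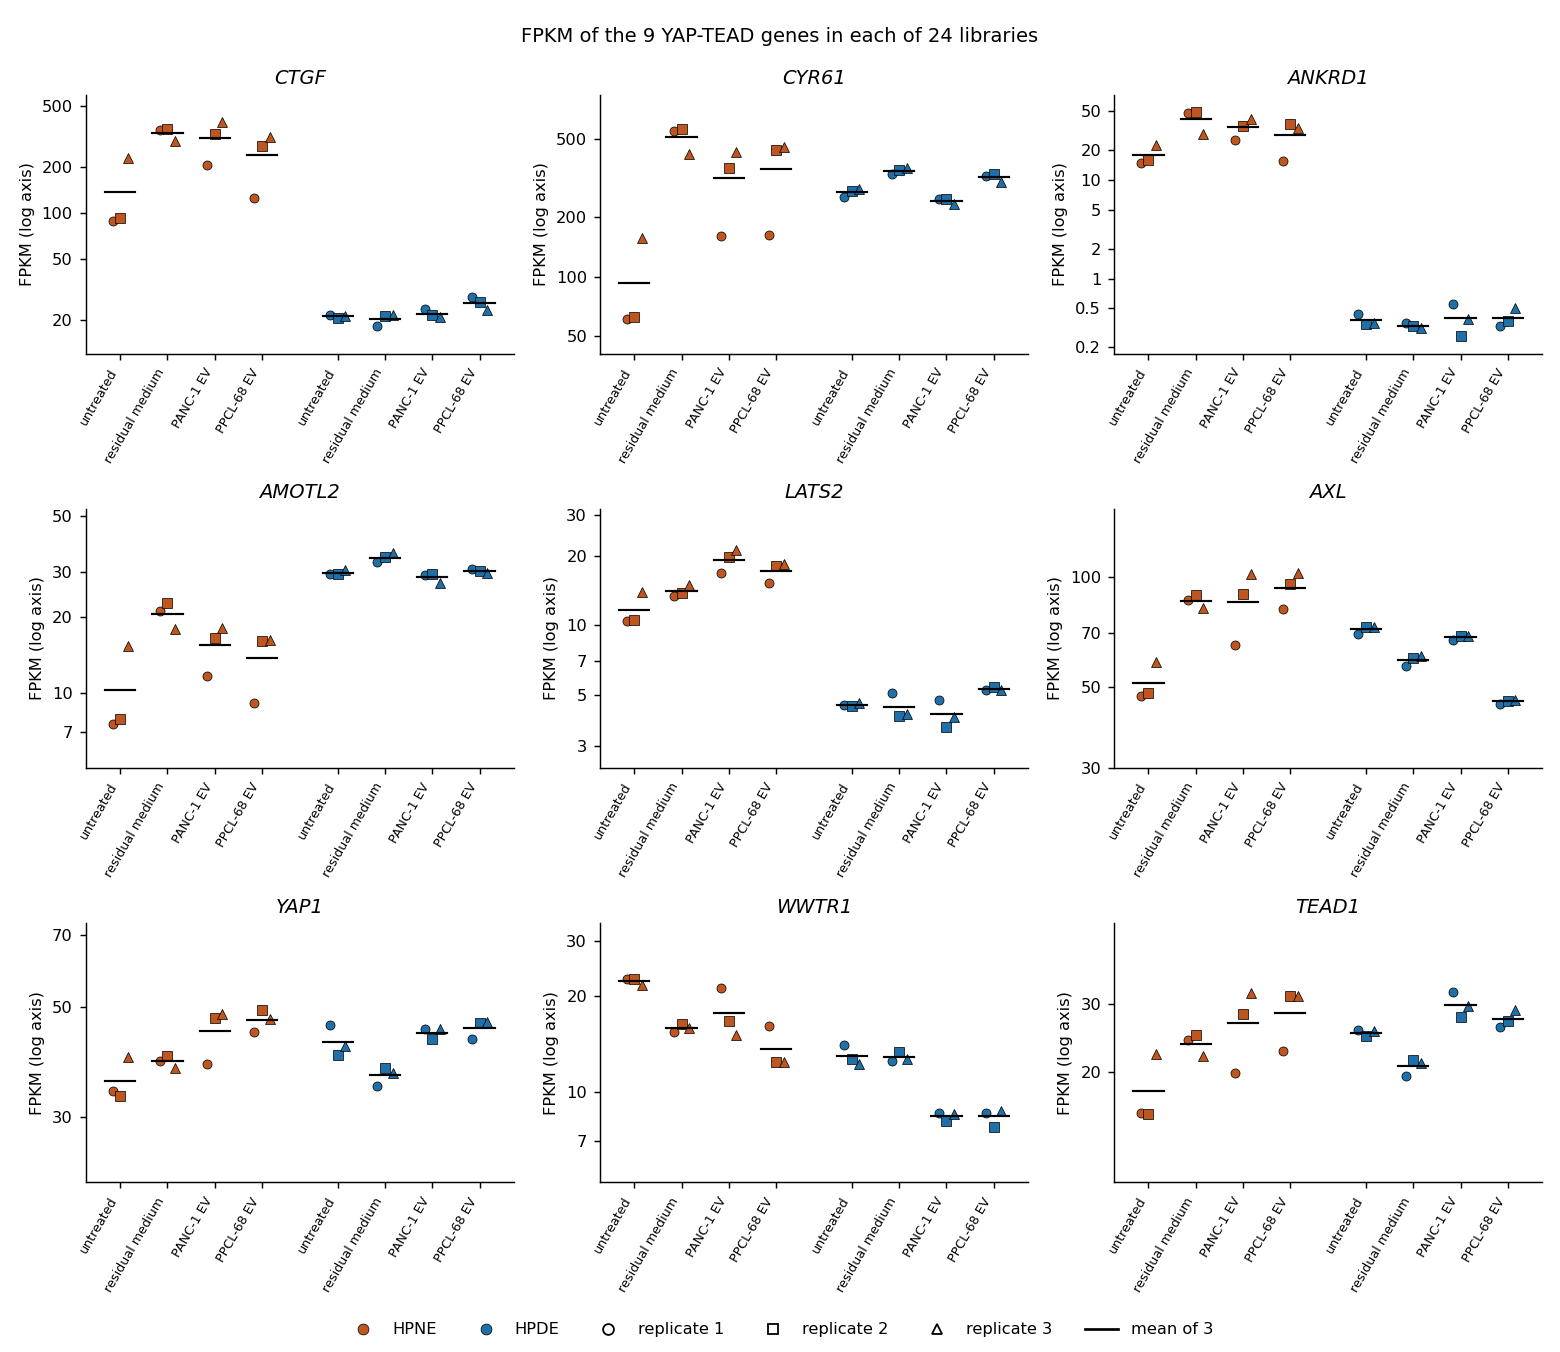
FPKM (log axis, its range set for each gene) of the 9 genes in each of the 24 libraries, by line and treatment, with 1 symbol per replicate number and a bar at the mean of 3. In HPNE, CTGF, CYR61, ANKRD1 and AMOTL2 are lower in the untreated libraries than in the residual-medium libraries, and in HPDE, WWTR1 is lower in both vesicle groups (7.74 to 8.70 FPKM) than in the other groups (12.2 to 14.1 FPKM).

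In HPNE cells, residual medium raised 5 of the genes over fresh medium: CTGF, CYR61, ANKRD1, AMOTL2 and AXL. It lowered WWTR1, and the values for LATS2, YAP1 and TEAD1 did not pass the test. Thus 6 of 9 genes differed, where 43.9% of 11503 tested genes did, 5 of them higher, where 18.7% were, and 1 lower, where 25.2% were. The median log2 difference was 0.74 over the 9 genes and -0.05 over all genes tested. Size factors moved the latter by 0.11, in the upward direction.

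CYR61 was at 61.0, 62.1 and 156 FPKM in untreated HPNE replicates 1, 2 and 3, and at 549, 558 and 416 FPKM in residual medium. Untreated replicate 3 was the highest of its group and residual-medium replicate 3 the lowest, and the groups did not overlap. The log2 difference was 2.57 ± 0.48 (SE here and below, on the scale of log2(FPKM + 1), adjusted p = 0.00233), a 5.46-fold rise by the ratio of means. CTGF was at 88.3, 92.8 and 228 FPKM untreated and at 346, 351 and 292 in residual medium. Untreated replicate 3 was well above the other 2 and still below every residual-medium library. CTGF rose by 1.41 ± 0.41 (adjusted p = 0.0175), or 2.42-fold.

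ANKRD1 was at 14.9, 16.2 and 23.0 FPKM untreated and at 47.9, 49.3 and 29.4 FPKM in residual medium, a log2 rise of 1.17 ± 0.32 (adjusted p = 0.0130). The same pair of libraries, replicate 3 of each group, lay closest together, with no overlap. AMOTL2 was at 7.53, 7.87 and 15.3 FPKM untreated and at 20.9, 22.6 and 17.9 in residual medium, a rise of 1.00 ± 0.27 (adjusted p = 0.0133). AXL, a receptor tyrosine kinase whose ligand is GAS6, was at 47.2, 48.0 and 58.5 FPKM untreated and at 86.5, 88.8 and 82.1 in residual medium, a rise of 0.74 ± 0.15 (adjusted p = 0.00388). For AXL the spread within each group was small beside the gap between the groups.

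LATS2, the kinase that inactivates YAP1 and TAZ, was at 10.5, 10.5 and 13.9 FPKM untreated and at 13.4, 13.8 and 14.9 in residual medium. The groups overlapped and the log2 difference of 0.26 ± 0.12 did not pass (adjusted p = 0.104). Among the coactivators and TEAD1, WWTR1 was at 22.6, 22.7 and 21.7 FPKM untreated and at 15.5, 16.3 and 15.9 FPKM in residual medium. Its groups were separate and it fell by 0.46 on the log2 scale (SE 0.12, adjusted p = 0.0127), opposite to the 5 genes that rose. YAP1 was at 33.8, 33.1 and 39.6 FPKM untreated and at 38.9, 39.8 and 37.7 in residual medium, a log2 difference of 0.13 ± 0.10 (adjusted p = 0.311). TEAD1, which binds DNA with either coactivator, was at 15.7, 15.6 and 22.3 FPKM untreated and at 24.1, 24.8 and 22.0 in residual medium, a difference of 0.40 ± 0.19 (adjusted p = 0.101). For YAP1 and TEAD1 untreated replicate 3 reached into the range of the residual-medium libraries.

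Single libraries decided some of these HPNE calls. Without the 4 libraries that lay apart, all 9 genes differed: CYR61 rose by 3.15, CTGF by 1.93 and TEAD1 by 0.62 on the log2 scale. Without untreated replicate 1 the number fell to 3, since CTGF (1.17, adjusted p = 0.0738), ANKRD1 (1.06, adjusted p = 0.0527) and AMOTL2 (0.83, adjusted p = 0.0593) no longer passed in limma. CTGF also missed the threshold without untreated replicate 2 (adjusted p = 0.0719), without residual-medium replicate 1 (0.0539) or 2 (0.0553), and with no filter on low values (0.0506). ANKRD1 missed it without residual-medium replicate 1 (adjusted p = 0.0505, limma) or 2 (0.0524), and AMOTL2 without untreated replicate 2 (0.0582). LATS2 and TEAD1 passed without untreated replicate 3 (0.38 and 0.57, adjusted p = 0.0205 and 0.0335, limma), and LATS2 also with size factors (0.0417). The calls on CYR61, AXL and WWTR1 held in all 14 alternatives run for each.

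**Figure D2:**
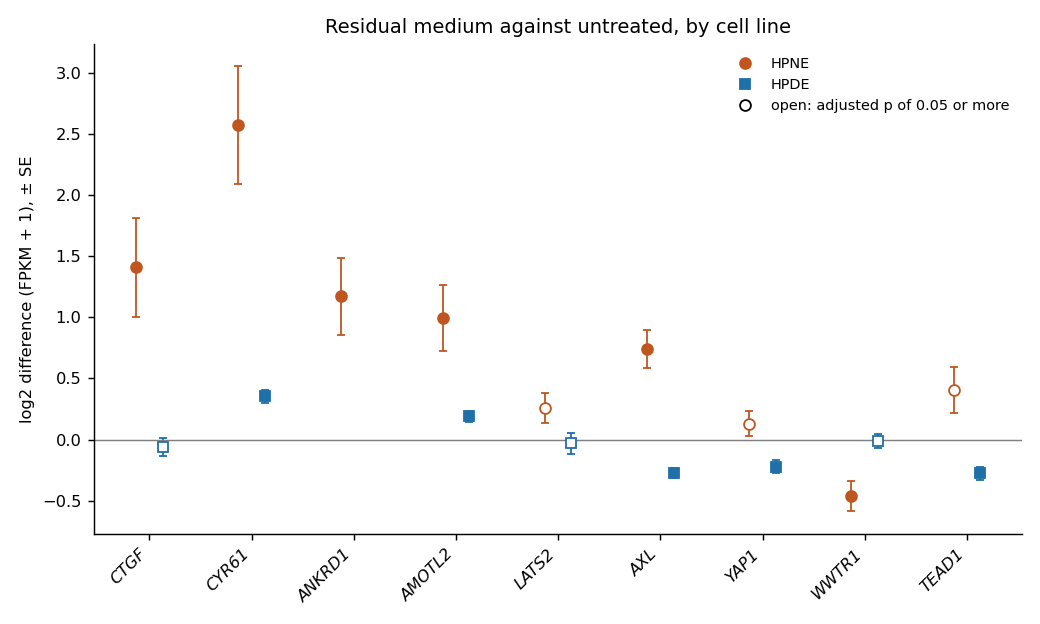
Log2 difference (log2(FPKM + 1), bars ± SE) between residual medium and untreated cells for each gene in HPNE (circles) and HPDE (squares), with open symbols where the adjusted p was 0.05 or more. ANKRD1 was below the filter in HPDE and is shown for HPNE alone. CYR61 rose by 2.57 in HPNE and by 0.36 in HPDE, and the HPDE values lie between -0.28 and 0.36.

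In HPDE cells the same change of medium moved 5 of the 8 tested genes, by small amounts and in both directions, where 20.0% of 12223 tested genes differed. CYR61 was at 253, 272 and 279 FPKM untreated and at 330, 345 and 354 in residual medium, and it rose by 0.36 ± 0.05 (adjusted p = 0.000412). AMOTL2 was at 29.5, 29.5 and 30.5 FPKM untreated and at 32.8, 34.4 and 35.6 in residual medium, and it rose by 0.19 ± 0.05 (adjusted p = 0.00948). In both genes every residual-medium library exceeded every untreated one. AXL fell by 0.27 on the log2 scale (SE 0.04, adjusted p = 0.000236), from 69.6, 72.7 and 73.0 FPKM to 56.9, 60.0 and 60.5. YAP1 fell by 0.22 (SE 0.05, adjusted p = 0.0116), from 46.1, 40.1 and 41.6 FPKM to 34.6, 37.7 and 36.7, a call that was lost without untreated replicate 1 (log2 difference -0.17, adjusted p = 0.0608, limma). TEAD1 fell by 0.28 (SE 0.06, adjusted p = 0.00411), from 25.6, 24.7 and 25.4 FPKM to 19.5, 21.4 and 21.1. The groups were separate for each of these 3 genes. CTGF (20.8 to 21.7 FPKM untreated, 18.2 to 21.5 in residual medium), LATS2 and WWTR1 gave log2 differences of -0.06, -0.03 and -0.01, none of which passed.

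The effect of residual medium differed between the lines for 7 of the 8 genes other than ANKRD1 by an interaction contrast over all 24 libraries, where 38.1% of 12377 tested genes did. The difference, HPDE minus HPNE, was -2.21 ± 0.52 for CYR61 (adjusted p = 0.00308) and -1.47 ± 0.44 for CTGF (0.0136). For AXL it was -1.01 ± 0.16 (adjusted p = 0.000130, limma), since AXL rose in HPNE and fell in HPDE. For WWTR1 it was positive, at 0.45 ± 0.14 (0.0166), and LATS2 was the gene that did not pass (-0.29 ± 0.15, 0.138). Without the 4 HPNE libraries that lay apart LATS2 passed too (-0.37, adjusted p = 0.00961, limma). ANKRD1 gave -1.22 ± 0.34, which restates its rise in HPNE, since at its HPDE level log2(FPKM + 1) flattens any change. By limma voom on the recovered reads its adjusted p was 0.392. AMOTL2 lost it in 10 of its 20 alternatives, among them the omission of HPNE untreated replicate 1 (-0.64, adjusted p = 0.105), and YAP1 lost it in 5 of 20, among them the omission of HPNE untreated replicate 2 (-0.30, 0.0655).

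Against residual medium, few of the 9 genes passed the test with vesicles in HPNE cells, where the SEs were larger than in HPDE. With PANC-1 EV, LATS2 was the 1 gene of 9 that differed, where 24.2% of 11503 tested genes did, and with PPCL-68 EV 0 of 9 differed by limma, where 39.9% did. With PPCL-68 EV 2 genes, LATS2 and YAP1, had an unadjusted p under 0.05 in limma (0.0444 and 0.0214). The limma voom test on recovered reads also called 0 there. LATS2 was at 16.7, 19.7 and 21.2 FPKM with PANC-1 EV and at 15.3, 17.9 and 18.4 with PPCL-68 EV, above the 13.4 to 14.9 FPKM of residual medium in all 6 vesicle libraries. The log2 difference of LATS2 was 0.43 ± 0.12 for PANC-1 EV (adjusted p = 0.0284) and 0.28 ± 0.12 for PPCL-68 EV (0.0934). The PANC-1 EV call was lost without PANC-1 EV replicate 2 (0.40, adjusted p = 0.0828) or 3 (0.35, 0.0939), without residual-medium replicate 1 (0.39, 0.0982) or 2 (0.41, 0.0880), with no filter on low values (0.0700) and with size factors (0.0675).

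The secreted and nuclear targets lay below residual medium on average in HPNE, with a wide spread. CTGF was at 204, 326 and 393 FPKM with PANC-1 EV and at 125, 274 and 312 with PPCL-68 EV. CYR61 was at 160, 356 and 430 FPKM and at 163, 436 and 454 FPKM. In both genes replicate 1 of each vesicle group was by far the lowest, and replicates 2 and 3 reached the range of residual medium or came near to it. The log2 differences for PANC-1 EV and PPCL-68 EV were -0.15 ± 0.41 and -0.57 ± 0.41 for CTGF and -0.79 ± 0.48 and -0.66 ± 0.48 for CYR61. ANKRD1 was at 25.7, 35.4 and 41.7 FPKM and at 15.7, 37.0 and 34.1 FPKM, and AMOTL2 at 11.7, 16.4 and 18.1 FPKM and at 9.12, 16.0 and 16.1 FPKM. Both genes had log2 differences of -0.58 with PPCL-68 EV, with SEs of 0.32 and 0.27, and neither passed (adjusted p = 0.163 and 0.110, limma).

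Without the 4 libraries that lay apart, HPNE showed a difference in 6 of the 9 genes for PANC-1 EV and in all 9 for PPCL-68 EV. The share of all tested genes that differed without them is not given here, so these counts cannot be set against it. CYR61, ANKRD1 and AMOTL2 were then lower with both vesicles, by 0.50, 0.33 and 0.32 with PANC-1 EV and by 0.32, 0.44 and 0.42 with PPCL-68 EV on the log2 scale. LATS2, YAP1 and TEAD1 were then higher with both, by 0.56, 0.28 and 0.29 and by 0.40, 0.29 and 0.34. CTGF fell by 0.25 with PPCL-68 EV and was at 0.04 with PANC-1 EV, and WWTR1 fell by 0.33 with PPCL-68 EV. Omitting PANC-1 EV replicate 1 alone gave 2 calls, LATS2 and YAP1 (YAP1 0.30, adjusted p = 0.0435, limma). No single omission gave a call with PPCL-68 EV.

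For the remaining genes in HPNE with all libraries, AXL was at 64.9, 89.5 and 102 FPKM with PANC-1 EV and at 81.6, 95.7 and 102 with PPCL-68 EV, around the level in residual medium. WWTR1 was at 21.3, 16.7 and 15.0 FPKM and at 16.1, 12.4 and 12.4 FPKM, again with replicate 1 apart, here as the highest. YAP1 was at 38.4, 47.6 and 48.4 FPKM and at 44.5, 49.4 and 47.3 FPKM, and all 3 PPCL-68 EV libraries exceeded those in residual medium (0.27 ± 0.10, adjusted p = 0.0526). TEAD1 was at 19.9, 28.3 and 32.0 FPKM and at 22.7, 31.3 and 31.3 FPKM, overlapping residual medium in both cases.

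**Figure D3:**
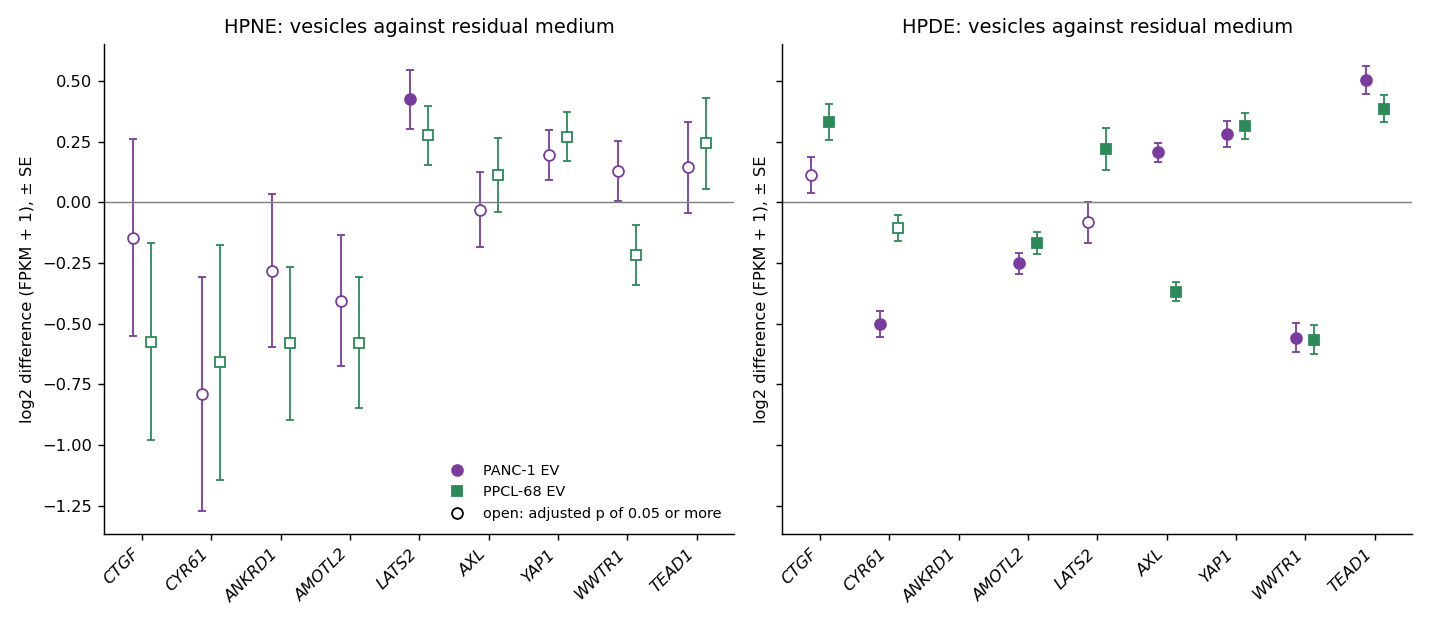
Log2 difference (log2(FPKM + 1), bars ± SE) between vesicle-treated and residual-medium cells for each gene, in HPNE (left) and HPDE (right), with PANC-1 EV as circles and PPCL-68 EV as squares and open symbols where the adjusted p was 0.05 or more. In HPNE the bars are long and 1 symbol is filled (LATS2 with PANC-1 EV), and in HPDE 6 and 7 of the 8 tested genes are filled, with values between -0.57 and 0.50.

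In HPDE cells WWTR1 fell while the other coactivator, YAP1, and TEAD1 rose, with vesicles of either source. With PANC-1 EV 6 of 8 tested genes differed from residual medium, and with PPCL-68 EV 7 of 8 did, where 63.3% and 67.7% of 12223 tested genes differed, so the counts are near those of the whole table. The median log2 difference of the 8 genes was 0.01 for PANC-1 EV and 0.06 for PPCL-68 EV, against -0.04 and -0.03 over all genes.

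WWTR1 was at 12.4, 13.4 and 12.7 FPKM in residual medium, at 8.54, 8.10 and 8.52 with PANC-1 EV and at 8.58, 7.74 and 8.70 with PPCL-68 EV. Every vesicle library was below every residual-medium and untreated library. It fell by 0.56 (SE 0.06, adjusted p = 1.77e-06) and by 0.57 (SE 0.06, adjusted p = 1.05e-06) on the log2 scale. YAP1 was at 45.1, 43.1 and 45.1 FPKM with PANC-1 EV and at 43.2, 46.4 and 46.8 with PPCL-68 EV, against 34.6 to 37.7 in residual medium. It rose by 0.28 ± 0.05 and 0.31 ± 0.05 (adjusted p = 0.000388 and 0.000127, limma). TEAD1 was at 32.1, 27.7 and 29.5 FPKM with PANC-1 EV and at 26.1, 27.1 and 28.9 with PPCL-68 EV, above all residual-medium libraries. It rose by 0.50 ± 0.06 and 0.39 ± 0.06 (adjusted p = 2.93e-06 and 2.93e-05, limma). Since YAP1 and TEAD1 were lower in residual medium than in fresh medium, their rise over untreated cells was smaller: 0.06 ± 0.05 and 0.09 ± 0.05 for YAP1, neither of which passed, and 0.23 ± 0.06 (adjusted p = 0.00322) and 0.11 ± 0.06 (0.106) for TEAD1. WWTR1 was lower than in untreated cells by 0.57 and 0.58, close to its values against residual medium.

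Among the targets in HPDE, CYR61 fell with PANC-1 EV, CTGF rose with PPCL-68 EV and AMOTL2 fell with both. CYR61 was at 247, 248 and 232 FPKM with PANC-1 EV, below all residual-medium libraries, and at 325, 331 and 300 with PPCL-68 EV, which overlapped them. It fell by 0.50 with PANC-1 EV (SE 0.05, adjusted p = 1.74e-06). The difference for PPCL-68 EV was -0.11 ± 0.05 (adjusted p = 0.0897, limma). CTGF was at 23.7, 21.7 and 20.9 FPKM with PANC-1 EV and at 28.4, 26.3 and 23.2 with PPCL-68 EV, against 18.2, 21.4 and 21.5 in residual medium. It rose with PPCL-68 EV by 0.33 ± 0.07 (adjusted p = 0.00107), and with PANC-1 EV the difference was 0.11 ± 0.07 (0.199). So the transcripts of the 2 secreted CCN proteins did not move together in this line. AMOTL2 was at 29.2, 29.5 and 27.1 FPKM with PANC-1 EV and at 31.0, 30.4 and 29.8 with PPCL-68 EV, below residual medium in all 6 libraries and near the untreated level. It fell by 0.25 and 0.17 on the log2 scale (adjusted p = 0.000215 and 0.00441, limma).

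AXL moved in opposite directions with the 2 vesicle sources. It was at 67.2, 68.7 and 69.0 FPKM with PANC-1 EV and at 44.9, 45.7 and 46.0 with PPCL-68 EV, with residual medium between them at 56.9 to 60.5. The 4 HPDE groups did not overlap in any pair, in the order untreated, PANC-1 EV, residual medium, PPCL-68 EV from high to low. Against residual medium AXL rose by 0.21 ± 0.04 (adjusted p = 0.000327) with PANC-1 EV and fell by 0.37 (SE 0.04, adjusted p = 9.45e-07) with PPCL-68 EV. LATS2 was at 5.22, 5.39 and 5.25 FPKM with PPCL-68 EV against 5.10, 4.02 and 4.13 in residual medium. Its rise of 0.22 ± 0.09 (adjusted p = 0.0335) was lost without residual-medium replicate 2 (0.17, 0.132) or 3 (0.18, 0.113), without any 1 of the PPCL-68 EV replicates (adjusted p = 0.0568, 0.0813 and 0.0624 without replicates 1, 2 and 3) and with no filter on low values (0.0954). ANKRD1 was at 0.260 to 0.549 FPKM in the 6 HPDE vesicle libraries, a range that held all of the other 6 (0.316 to 0.435).

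Compared with each other, the 2 vesicle sources differed for 4 of the 8 tested genes in HPDE, where 50.1% of 12223 tested genes differed, and for 0 of 9 in HPNE, where 5.47% did. In HPDE AXL was 1.5-fold higher with PANC-1 EV than with PPCL-68 EV by the ratio of means (log2 difference 0.57 ± 0.04, adjusted p = 4.34e-08), and CYR61 (-0.39 ± 0.05), LATS2 (-0.30 ± 0.09) and CTGF (-0.22 ± 0.07) were lower. The CTGF call was lost without PANC-1 EV replicate 2 or 3 or PPCL-68 EV replicate 1 or 2 (adjusted p = 0.0608, 0.0869, 0.106 and 0.0616, limma) and with no filter on low values (0.0853). WWTR1 and YAP1 differed between the sources by 0.01 ± 0.06 and -0.03 ± 0.05. In HPNE 1 gene, WWTR1, had an unadjusted p under 0.05 (0.0173) in limma, and limma voom called 0. It passed without PPCL-68 EV replicate 1 (0.46, adjusted p = 0.0419, limma). Without the 4 libraries that lay apart 3 genes differed in HPNE, CTGF (0.29), LATS2 (0.16) and WWTR1 (0.33), each higher with PANC-1 EV.

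Against fresh medium, 5 of 9 genes were higher in HPNE with PANC-1 EV, where 21.1% of 11503 tested genes differed and 9.61% were higher. With PPCL-68 EV 6 of 9 differed, 5 higher and WWTR1 lower, where 42.5% differed, 18.7% higher and 23.8% lower. These comparisons share the untreated libraries with the residual-medium comparison. CYR61 was higher by 1.78 ± 0.48 and 1.91 ± 0.48, LATS2 by 0.68 ± 0.12 and 0.54 ± 0.12, AXL by 0.71 ± 0.15 and 0.85 ± 0.15 and YAP1 by 0.33 ± 0.10 and 0.40 ± 0.10, all with adjusted p under 0.05 in limma. CTGF passed with PANC-1 EV (1.26 ± 0.41, adjusted p = 0.0475) and TEAD1 with PPCL-68 EV (0.65 ± 0.19, 0.0171). The TEAD1 call was lost without PPCL-68 EV replicate 2 (adjusted p = 0.0670, limma) or 3 (0.0663) or untreated replicate 1 (0.0668) or 2 (0.0685). The PANC-1 EV count was 2 without PANC-1 EV replicate 2 or 3 or untreated replicate 1 or 2, and 8 without PANC-1 EV replicate 1 or untreated replicate 3. Without all 4 libraries that lay apart it was 9, and the PPCL-68 EV count was also 9, with CTGF (1.68), ANKRD1 (1.14) and AMOTL2 (0.97) among those higher. With no filter on low values the PANC-1 EV count was 2. In HPDE 3 of 8 genes differed with PANC-1 EV, where 60.6% of 12223 tested genes did, and 4 of 8 with PPCL-68 EV, where 66.3% did. AXL was lower by 0.64 (SE 0.04, adjusted p = 2.50e-09) with PPCL-68 EV, and its difference with PANC-1 EV was -0.07 ± 0.04 (0.131).

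The effect of vesicles against residual medium differed between the lines for 2 genes with PANC-1 EV, where 21.2% of 12377 tested genes differed, and for 1 gene with PPCL-68 EV, where 25.7% did. With PANC-1 EV, WWTR1 differed by -0.69 ± 0.14 (HPDE minus HPNE, adjusted p = 0.00160) and LATS2 by -0.51 ± 0.15 (0.0226). With PPCL-68 EV, AXL differed by -0.48 ± 0.16 (0.0341). The WWTR1 difference passed in all 20 alternatives. LATS2 lost its call in 5 of 20, the omissions of HPNE PANC-1 EV replicate 3 (adjusted p = 0.0552), HPNE residual-medium replicate 1 (0.0527), HPDE PANC-1 EV replicate 2 (0.0650) or HPDE residual-medium replicate 1 (0.0720) and the use of size factors (0.0640). AXL lost its call in 10 of 20, with adjusted p up to 0.0846. Without the 4 HPNE libraries that lay apart 4 genes differed for PANC-1 EV and 5 for PPCL-68 EV, ANKRD1 among both and CTGF among the latter (0.59, adjusted p = 0.000872). ANKRD1 passed the filter there through HPNE alone, so its values restate its falls in HPNE.

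Of 16 other reported YAP-TEAD targets, all 16 were tested in HPNE and 13 in HPDE. In HPNE 7 rose and 1 fell with residual medium over fresh medium, with a median log2 difference of 0.50, and in HPDE 3 rose and 5 fell, with a median of 0.07. Over all genes tested 43.9% and 20.0% differed in these comparisons. CRIM1 (1.83), NUAK2 (1.39) and TGFB2 (1.23) were among those that rose in HPNE, which were named after their values were seen. With PPCL-68 EV against residual medium 2 of the 16 rose and 6 fell in HPNE, with a median of -0.16, and 5 of 13 rose and 5 fell in HPDE, with a median of -0.01. With PANC-1 EV 1 rose and 1 fell in HPNE, and 7 of 13 rose and 4 fell in HPDE. Of all genes tested, PPCL-68 EV changed 39.9% in HPNE and 67.7% in HPDE, and PANC-1 EV 24.2% and 63.3%. GADD45A, a stress-induced growth arrest gene, rose with vesicles over residual medium in both lines. In HPNE it went from 44.1 ± 2.86 FPKM to 188 ± 66.7 after PANC-1 EV and 184 ± 24.2 after PPCL-68 EV (SD, n = 3), log2 rises of 2.00 and 2.03. In HPDE it went from 76.0 ± 3.74 FPKM to 186 ± 9.57 and 136 ± 9.29. F3, tissue factor, fell in HPDE with PPCL-68 EV from 759 ± 14.6 to 358 ± 17.2 FPKM. PTPN14, a phosphatase that binds YAP1, rose there with PANC-1 EV from 10.2 to 18.9 FPKM. In HPNE CRIM1 fell with PANC-1 EV from 208 ± 14.3 to 107 ± 31.0 FPKM and CCDC80 with PPCL-68 EV from 199 ± 24.6 to 83.6 ± 20.3.

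The list of the Hippo kinase branch upstream of LATS2 held 18 genes, 16 of them above the filter in HPNE and 17 in HPDE. With residual medium over fresh medium 6 rose and 0 fell in HPNE (median 0.18), and 3 rose and 4 fell in HPDE (median -0.07). LATS1, the paralogue of LATS2, rose with PANC-1 EV in HPNE from 6.15 ± 0.148 to 9.26 ± 0.513 FPKM and with PPCL-68 EV in HPDE from 7.80 ± 0.179 to 15.5 ± 0.839. FRMD6, a scaffold protein upstream of the kinases, rose in HPDE from 39.3 ± 2.14 FPKM to 71.1 ± 2.96 after PANC-1 EV and 83.7 ± 1.12 after PPCL-68 EV. NF2, which recruits LATS kinases to the membrane, fell in HPNE with PPCL-68 EV from 19.9 ± 4.54 to 10.1 ± 1.11 FPKM. AJUBA, a LIM protein that holds LATS kinases inactive, rose there from 19.1 to 34.9 FPKM. The kinase TAOK2 fell with PANC-1 EV in both lines, by 0.43 in HPNE and 0.94 in HPDE on the log2 scale. Over the list, PANC-1 EV against residual medium gave 1 rise and 3 falls in HPNE and 9 rises and 4 falls in HPDE, and PPCL-68 EV gave 3 rises and 6 falls in HPNE and 7 rises and 6 falls in HPDE. The shares of all genes that differed were 24.2% and 63.3% for PANC-1 EV and 39.9% and 67.7% for PPCL-68 EV, and 43.9% and 20.0% for residual medium over fresh medium.

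Among 6 other TEAD factors and cofactors, 5 of which were tested in each line, TEAD2 fell in HPDE from 5.67 ± 0.428 FPKM to 2.95 ± 0.0336 after PANC-1 EV and 2.02 ± 0.384 after PPCL-68 EV, while TEAD1 rose. VGLL1, a cofactor that competes for TEAD, fell there from 3.57 to 1.31 and 0.926 FPKM. In HPNE with PANC-1 EV, TEAD3 fell by 0.22 and VGLL4, another such cofactor, rose by 0.61 on the log2 scale. Of the 4 other CCN genes, 1 (WISP1) was tested in HPNE and 0 in HPDE. WISP1, named after its values were seen, was at 44.3 FPKM in residual-medium replicate 3 and at 5.17 to 10.1 FPKM in the other 11 HPNE libraries, and no comparison of it within HPNE passed.

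Other gene lists moved in the same HPNE libraries. The 8 proliferation genes summed to 94.9, 95.8 and 156 FPKM in untreated HPNE replicates 1, 2 and 3 and to 400.1, 398 and 132 FPKM in residual medium, and 7 of 8 rose (median log2 difference 1.68). The sum in residual-medium replicate 3 lay above untreated replicates 1 and 2 and below untreated replicate 3, and both replicates 3 were among the libraries that lay apart. With PANC-1 EV against residual medium 6 of the 8 fell and with PPCL-68 EV all 8 did. In HPDE all 8 fell with either vesicle, and AURKB, a mitotic kinase, went from 64.0 ± 2.48 FPKM to 32.1 ± 1.5 and 23.1 ± 1.04. Of 14 actin and SRF genes, which respond to actin assembly as YAP1 does, 4 rose and 1 fell in HPNE with residual medium (median 0.56), 0 rose and 1 fell with PANC-1 EV, and 0 rose and 5 fell with PPCL-68 EV against residual medium. CALD1, which stabilises actin filaments, fell with PPCL-68 EV in HPNE from 219 ± 29.3 to 116 ± 5.93 FPKM and in HPDE from 46.5 ± 1.74 to 27.6 ± 1.3. MYL9, a myosin light chain, fell in HPDE from 7.5 to 3.83 FPKM after PANC-1 EV and 2.91 after PPCL-68 EV. Of 7 TGF-beta response genes, 1 rose and 3 fell in HPNE with residual medium, and 4 rose and 0 fell with each vesicle source against residual medium. SMAD7, the inhibitory SMAD, was higher with vesicles than in residual medium in both lines. In HPNE it went from 4.35 FPKM to 9.20 and 10.5, where untreated cells averaged 9.13. In HPDE it went from 3.13 to 6.65 and 7.5, where untreated cells averaged 3.43. Beside these counts, residual medium changed 43.9% of all tested genes in HPNE, PANC-1 EV changed 24.2% in HPNE and 63.3% in HPDE, and PPCL-68 EV changed 39.9% and 67.7%. The part of these lists in the values of the 9 genes was not tested.

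**Figure D4:**
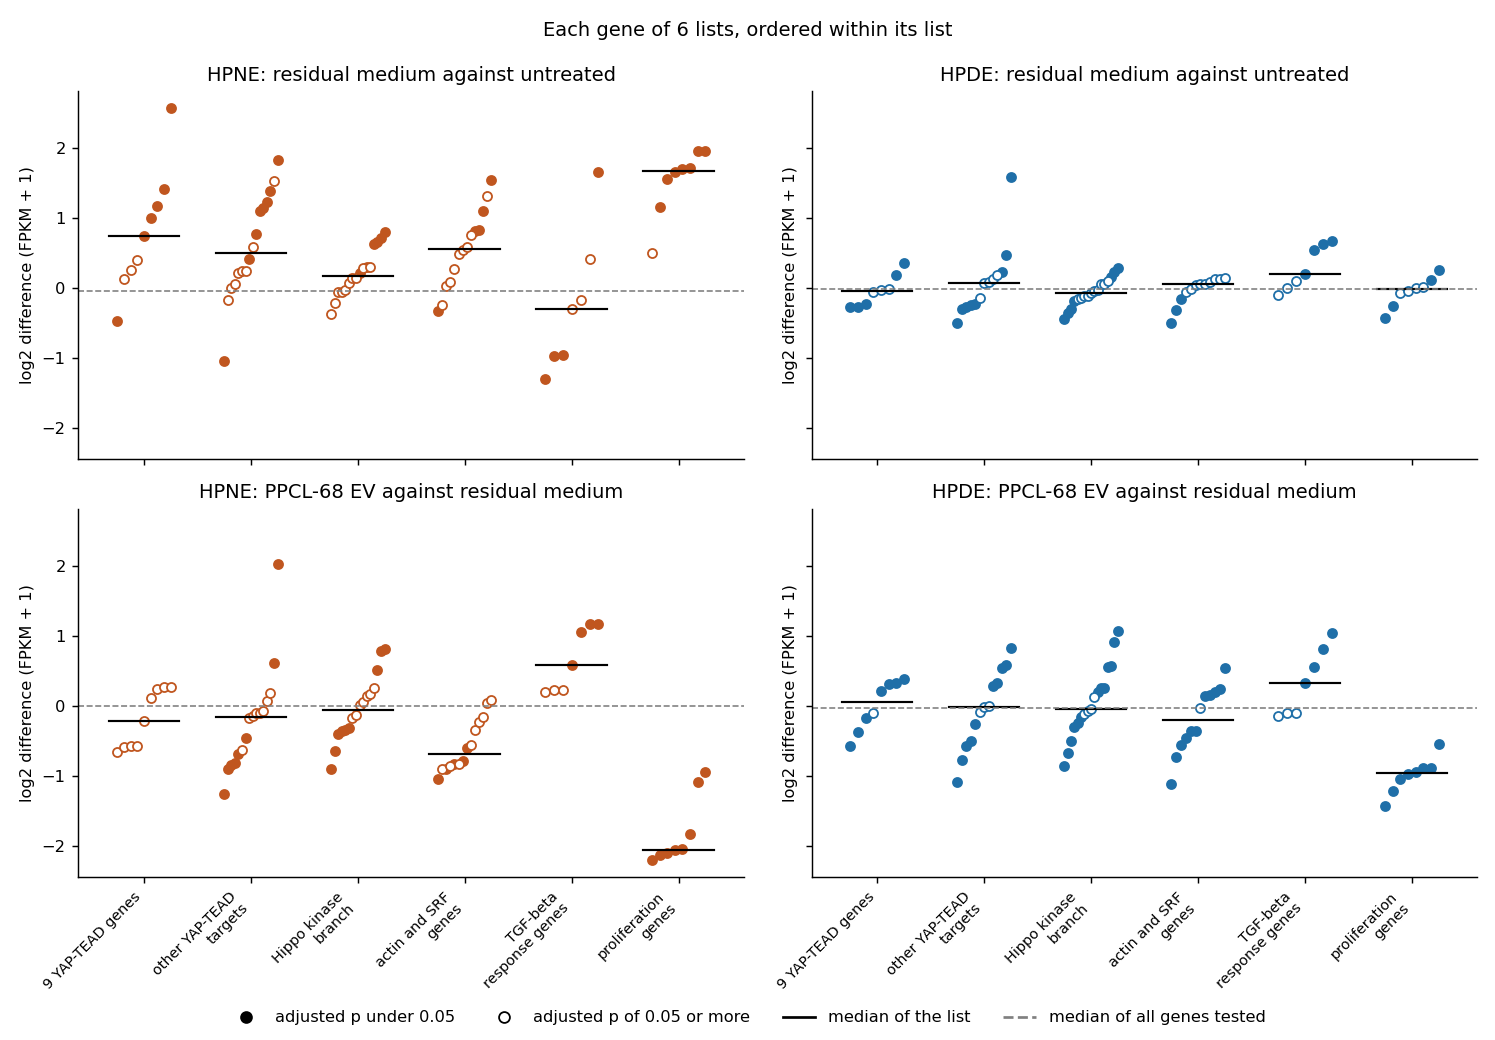
Log2 difference (log2(FPKM + 1)) of each tested gene of 6 lists, ordered within its list, for residual medium against untreated (top) and PPCL-68 EV against residual medium (bottom) in HPNE (left) and HPDE (right), filled where the adjusted p was under 0.05, with the list median as a bar and the median of all genes tested as a dashed line. In HPNE the medians with residual medium are 0.74 for the 9 genes, 0.50 for other targets and 1.68 for proliferation genes, and in HPDE these are -0.05, 0.07 and -0.02.

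Markers of cell type also moved with vesicles. In HPDE all 6 epithelial markers were lower than in residual medium after PANC-1 EV and 5 of 6 after PPCL-68 EV. Of all tested genes 63.3% and 67.7% differed there. Against untreated cells EPCAM was higher with the 2 vesicles, by 0.19 and 0.27 on the log2 scale. CDH1 did not pass against untreated cells (adjusted p = 0.0983 and 0.0528, limma), and the 4 keratins were lower with both. KRT8 went from 657 ± 16.5 FPKM to 209 ± 15.1 and 158 ± 0.994, and the epithelial sum from 3122 to 3498 FPKM in residual medium to 1549 to 1811 and 1431 to 1444. EPCAM and CDH1 remained at 148 FPKM or more and 44.9 FPKM or more in every HPDE library. In HPNE the mesenchymal sum was 7145 to 9114 FPKM untreated, 3905 to 6923 in residual medium, 4622 to 6793 after PANC-1 EV and 2706 to 3629 after PPCL-68 EV, and the collagens COL1A1, COL1A2 and COL3A1 made up most of it. Its 7 genes did not move alike against residual medium: with PPCL-68 EV 2 fell (VIM by 1.30 and COL1A2 by 0.71 on the log2 scale) and TWIST2 rose by 0.56, and with PANC-1 EV 2 rose (TWIST2 by 0.36 and PDGFRB by 1.33) and 0 fell. PDGFRB, and TWIST2 with PPCL-68 EV, were named after their values were seen. In HPNE PDGFRB averaged 445 FPKM untreated, 108 in residual medium and 243 after PANC-1 EV. Its PANC-1 EV libraries (193 to 326 FPKM) overlapped those of residual medium (64.1 to 195). They lay below all untreated ones (340 to 503 FPKM). TWIST2 averaged 23.9 FPKM untreated, 17.8 in residual medium, 23.0 after PANC-1 EV and 26.7 after PPCL-68 EV. Neither gene's PANC-1 EV mean exceeded its untreated mean. In HPDE CD14 went from 1.78 FPKM in residual medium to 0.642 and 0.742 with the vesicles. The other haematopoietic markers, PTPRC, CD68 and ITGAM, did not exceed 0.0599 FPKM in any library. The part of cell type in the YAP-TEAD values was not tested.

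Across the 12 HPNE libraries the classical targets varied together. Pearson's r on the log2 scale was 0.94 between CTGF and CYR61, 0.94 between CTGF and ANKRD1 and 0.96 between CTGF and AMOTL2, and WWTR1 ran against them, at -0.66 with CTGF and -0.83 with CYR61. These are descriptions over libraries that share 4 treatment groups and the separation of the 4 libraries that lay apart. Across the 12 HPDE libraries r was 0.16 between CTGF and CYR61, 0.86 between CYR61 and AMOTL2, and 0.90 between YAP1 and TEAD1. Among all tested genes in HPNE, those most like CTGF were MARCHF4 (r = 0.98, with a Spearman's rho of 0.97), PDLIM5 (0.97) and AMOTL2 (0.96). MARCHF4 was matched by its Ensembl identifier, because the deposited symbol had been turned into a calendar date. Those most like CYR61 were THSD4, PDCD1LG2 and COTL1 (0.98 each), and those most like ANKRD1 were SMURF2 (0.98), ITGA2 (0.97) and MARCHF4 (0.97). In HPDE those most like CTGF were DCP2 (0.96), OLA1 (0.93) and RP11-473I1.5 (0.93), and those most like CYR61 were RRBP1, TIMP1 and DYNLL1 (0.93, 0.93 and 0.92). ANKRD1 had too few reads in HPDE for its likeness to other genes to be given.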

How the data were processed

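Per the file headers, the authors deposited 1 table per library with each gene's FPKM value, length, symbol and position. The submitters' processing notes name CASAVA, STAR, HTSeq, DESeq2 and the build hg19, with no versions or roles; annotation and filters are not given in the sources used here. The library kit was non-directional, per the labels' protocols, so reads of a gene and an overlapping antisense gene cannot be told apart. Scaled by gene length, 100% of the FPKM values of each library fell on whole multiples of 1 step (within 0.01), which gave the reads per gene. Intervals and floors from reads cover counting error only.

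Sample titles gave the groups and the replicate numbers. FPKM were tested with limma 3.58.1 (R 4.3.3; lmFit and eBayes with a trend, two-sided) on log2(FPKM + 1), which understates changes of weakly expressed genes. The filter was a mean of at least 1 FPKM over the libraries fitted: 12 of a line (8 residual degrees of freedom) or all 24 (16) for contrasts between lines. Each adjusted p is Benjamini-Hochberg over all genes tested, with a threshold of 0.05. FPKM relates each library to its own total, so abundant genes that change shift all others.

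The 9 genes and the 11 other lists were chosen with earlier results of these data known. From each other list, the genes named were, per line and vesicle comparison with residual medium, at most the 2 with the highest absolute log2 difference among genes that passed the threshold and whose groups did not overlap; exceptions are marked. For likeness, the 3 genes with the highest Pearson r over 12 libraries were named. Alternatives were a pseudocount of 0.1, no filter, a mean of at least 5 FPKM, size factors, limma voom on recovered reads, only the libraries compared, the replicate number as a block, each library left out, and (added after seeing the data) 4 HPNE libraries left out. Same-numbered replicates deviated together for all 3 numbers (r from 0.29 to 0.57) between the 2 HPNE vesicle groups, and in no other comparison of 2 groups. In both of those vesicle groups replicate 1 lay apart.

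On simulated data with 200 genes changed, the pipeline recovered 75.5% of 2-fold and 34.5% of 1.5-fold changes for PANC-1 EV against residual medium in HPNE (11464 and 11477 genes). In HPDE it recovered 98.0% and 90.0% (12224 and 12226 genes). The simulation drew each gene's reads independently, without whole libraries lying apart. In the data HPNE libraries lay apart, and 24.2% (HPNE) and 63.3% (HPDE) of tested genes differed, so these rates need not hold there.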

Additional observations from a re-analysis of the deposited data

Results flagged for a closer look

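The effect of residual medium over fresh medium differed between the lines for each gene given next, by the interaction contrast in limma. Of 12377 tested genes 38.1% differed there. The difference, HPDE minus HPNE, was -1.47 for CTGF, -2.21 for CYR61, -0.81 for AMOTL2, -1.01 for AXL, -0.35 for YAP1, 0.45 for WWTR1 and -0.68 for TEAD1 on the log2 scale. ANKRD1 gave -1.22 and is set apart. It passed the filter through HPNE alone, so its value restates the HPNE rise, and it lost the call by limma voom (adjusted p = 0.392). AMOTL2 lost the call in 10 and YAP1 in 5 of 20 alternatives. AXL rose in HPNE and fell in HPDE, with no overlap between the residual-medium and untreated libraries of either line. The effect of PANC-1 EV over residual medium differed for LATS2 (-0.51), which was higher in HPNE, and for WWTR1 (-0.69), which was lower in HPDE. Of all tested genes 21.2% differed there. The effect of PPCL-68 EV over residual medium differed for AXL (-0.48), which was lower in HPDE, and for 25.7% of all tested genes. These calls on LATS2 and AXL were lost in 5 and 10 of 20 alternatives, and that on WWTR1 in none of 20. Each gene other than ANKRD1 is listed because the same contrast gave values in the 2 lines that differed by a test of the difference itself. ANKRD1 was not tested within HPDE.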

How the results depend on the processing

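Over the 9 genes and 16 comparisons, 1888 of 2040 single-gene values under an alternative kept their direction and side of the threshold, 87 lost the call, 64 gained one and 1 reversed: YAP1 between untreated lines under size factors (-0.10). Leaving out each library in turn, the number of genes that differed ranged, in HPNE, from 0 to 2 (PANC-1 EV against residual medium), 0 to 0 (PPCL-68 EV against residual medium), 3 to 8 (residual medium against untreated), 2 to 8 (PANC-1 EV against untreated), 5 to 8 (PPCL-68 EV against untreated) and 0 to 1 (between vesicles). In HPDE, in the same order, it ranged from 6 to 6, 6 to 7, 4 to 5, 2 to 3, 4 to 5 and 3 to 4. Between lines it ranged from 1 to 2 (PANC-1 EV), 0 to 2 (PPCL-68 EV), 6 to 9 (residual medium) and 9 to 9 (untreated). Without the 4 HPNE libraries that lay apart the numbers were 6 and 9 for PANC-1 EV and PPCL-68 EV against residual medium. They were 9 for PANC-1 EV against untreated, 3 between vesicles, and 4 and 5 for the 2 vesicle effects between lines. Shares of all tested genes under that alternative are not given here. With no filter on low values the number was 0 for HPNE PANC-1 EV against residual medium, 2 against untreated and 0 for the PPCL-68 EV effect between lines. With size factors it was 0 for HPNE PANC-1 EV against residual medium, 7 for HPDE PPCL-68 EV against untreated, and 1 and 0 for the PANC-1 EV and PPCL-68 EV effects between lines. With only the libraries compared it was 1 for HPNE PPCL-68 EV against residual medium. Shares of all tested genes are not given here for the single omissions and the other settings either, so these changes are not read as particular to the 9 genes. The cause of these changes was not tested.

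When replicate number entered as a block, the count was 2 for HPNE PPCL-68 EV against residual medium (LATS2 and YAP1). In HPNE it was 7 for residual medium against untreated and 6 for PANC-1 EV against untreated. It stayed at 0 between the HPNE vesicle groups, where same-numbered replicates deviated together. In the other comparisons the block left the count of genes as it was. Same-numbered untreated and residual-medium libraries of HPNE deviated in opposite directions (r from -0.51 to -0.39). Depth limited ANKRD1 in HPDE (18 to 37 reads). Counts between lines in this section include ANKRD1, which passed the filter there through HPNE alone.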
